A study of Mus musculus with 10 samples.

Results

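The motile cilia genes examined here were 38 genes of multiciliated cells, taken as a fixed list of symbols from the 39017 genes of the deposited count table. Each of the 38 symbols was found once in the table, and the rule of membership is a match of the symbol. The list covers 7 roles: regulators of the multiciliated state, dynein arms, proteins that assemble them, radial spokes and the central pair, the nexin link and its rulers, tektins and tubulin, and other proteins of the ciliated cell. Of the 38 members, 36 carried enough counts to be tested between groups. Mcidas and Dnaaf1 did not pass the filter on low counts.

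Motile cilia are hair-like projections that beat in waves and move mucus along the airways, where they stand in tufts on multiciliated cells between the secretory club cells. Their core, the axoneme, is a ring of doublet microtubules around a central pair. Dynein motors on the doublets slide them past each other, the nexin link turns sliding into bending, and radial spokes pass signals from the central pair to the motors. The forkhead factor Foxj1 and the RFX factors switch on the genes of this machine in cells that leave the cycle to form many basal bodies.

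The 10 libraries came from lung tumors of C57BL/6 mice, each with a floxed-stop K-rasLSL-G12D/WT allele and p53Fl/Fl, which both groups shared. The 5 controls (KP) were labelled heterozygous for the floxed allele of Glut1, whereas the design text of the series calls them Glut1-WT, and the 5 Glut1-KO libraries (KPG1) were labelled homozygous. Tumors were started with an adenovirus that expresses Cre from the CC10 promoter, active in club cells, and were collected after 20 weeks and 1 day. Macrodissected tumors were dissociated and depleted of CD45-positive cells, so a library can hold other CD45-negative cells of the piece beside tumor cells. All 5 controls were male, and of the Glut1-KO libraries 1 to 3 were female and 4 and 5 male. Numbers in the deposited names were shared by control libraries 1, 2 and 5, by control libraries 3 and 4, and by Glut1-KO libraries 4 and 5. No label says whether such libraries came from the same mouse, and the p-values treat all libraries as independent.

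The depth of a library lay between 35.25 and 49.76 M counts, where M stands for mega. Levels are given as counts per M after TMM scaling (CPM). Slc2a1, the gene of Glut1, stood at 118, 86.7, 92.6, 103 and 73.2 CPM in controls 1 to 5 and at 60.3, 42.5, 34.6, 92.4 and 103 CPM in Glut1-KO libraries 1 to 5. Glut1-KO 4 and 5 lay inside the control range, so the Glut1-KO group is named by its label throughout. The fitted log2 fold change of Slc2a1 was -0.62 (SE 0.29, limma adjusted p = 0.658). Across the 10 libraries, its log2 CPM had a Pearson r of -0.07 to the mean of the motile cilia genes. Markers of alveolar type 2 cells, among them the surfactant gene Sftpc, summed to between 27866 and 85961 CPM and those of club cells to between 1196 and 10436 CPM.

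The motile cilia genes varied widely between libraries of the same group. The mean log2 CPM over the 36 tested members, called the cilia level here, was 1.15, -0.96, 2.26, 0.82 and 3.45 in controls 1 to 5. In Glut1-KO libraries 1 to 5 it was 1.46, 0.36, 0.60, -0.17 and -0.97. Control 5 stood highest and Glut1-KO 5 lowest, with control 2 next to it. Controls 3 and 5 lay above every Glut1-KO library, and the other 3 controls lay within the Glut1-KO range. The group means were 1.34 ± 1.65 in controls and 0.26 ± 0.90 in Glut1-KO libraries (SD, n = 5 each). Control 2 and control 5 carried the same number in their names and lay near the opposite ends.

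Summed over the members other than Tubb4b, the abundant tubulin gene, the level was 125, 52.9, 220, 109 and 548 CPM in controls 1 to 5. It was 142, 75.2, 101, 75.3 and 53.4 CPM in Glut1-KO libraries 1 to 5. Control 5 held more of these transcripts than any other library, and the lowest control fell just below the lowest Glut1-KO library. Of the 36 tested members, 29 were highest in control 5, and the lowest value lay in Glut1-KO 5 for 15 members and in control 2 for 14. Among the 33 tested members with no library at 0, the highest library exceeded the lowest by a median of 35.4-fold, from 2.04-fold in Tubb4b to 274-fold in Cdhr4. The lowest library of Cdhr4, Glut1-KO 5, held 1 read, so its fold range is imprecise. Only 7 members spanned less than 10-fold (Tubb4b, Rfx3, Rsph9, Rfx2, Tekt2, Zmynd10 and Drc1). In bulk RNA, fewer ciliated cells and less RNA per ciliated cell cannot be told apart.

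**Figure D1:**
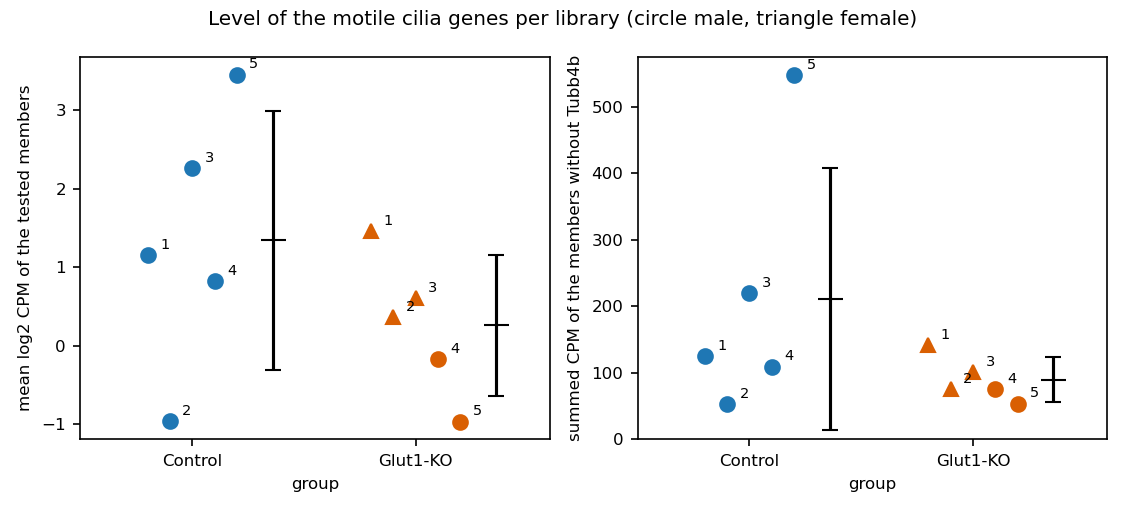
Level of the motile cilia genes in each library: left, mean log2 CPM of the 36 tested members; right, summed CPM without Tubb4b. Points are single libraries numbered by replicate (circles male, triangles female), and the horizontal marks with bars give the group mean and SD (n = 5); controls run from -0.96 to 3.45 and Glut1-KO libraries from -0.97 to 1.46 on the left axis.

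Across the 10 libraries, most members followed each other. The Pearson r of a member to the mean log2 CPM of the other members had a median of 0.92, and 20 of 36 members exceeded 0.9. With group means removed the median was 0.91, so the shared pattern was also present within the groups. Without control 5 and Glut1-KO 5, the libraries farthest from the median cilia level, the median over the other 8 libraries was 0.84. For 15886 tested genes outside the members, r to the cilia level had a median of 0.00, and 88 of them exceeded 0.9. These values describe genes read in the same libraries, so each gene shares depth, dissection and cell mixture with the others.

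The members most like the others belonged to several structures. Dnah5, a heavy chain of the outer arm, had an r of 0.99, Rsph1 of the radial spoke head and the cadherin Cdhr3 each 0.98, and Ccdc113 0.97. Tubb4b, which dividing cells also use, had an r of 0.21, Rfx3, which also acts in cells with a primary cilium, 0.24, and Rfx2 0.49. Tekt2, a tektin of the doublet wall, had the lowest value, with an r of -0.17.

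**Figure D2:**
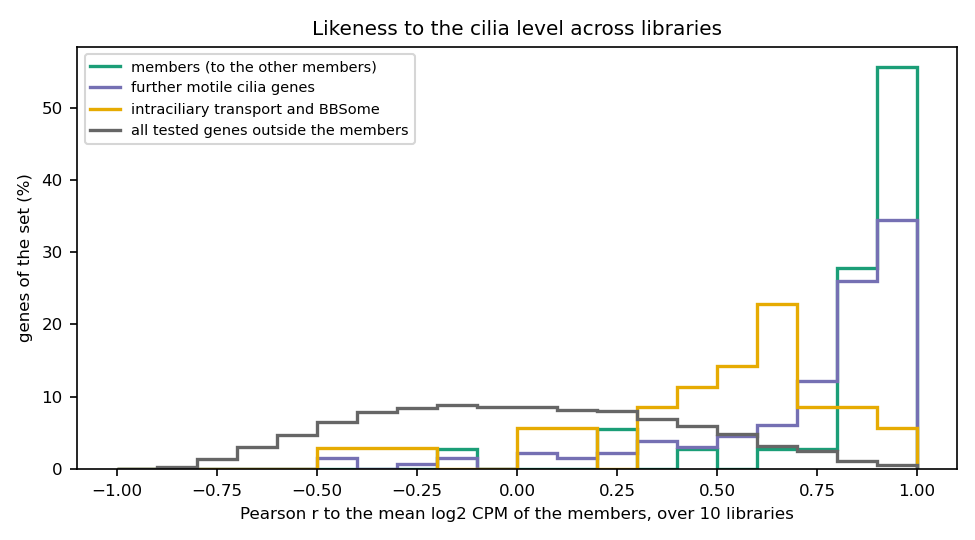
Share of genes (percent, vertical axis) by Pearson r over 10 libraries to the mean log2 CPM of the motile cilia genes (horizontal axis, steps of 0.1). Members (green, each against the other members) and further motile cilia genes (purple) pile up at the right, transport and other genes shared with primary cilia (yellow) have a median of 0.59, and all tested genes outside the members (grey) spread around 0.00.

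The 10 genes outside the members with the highest r to the cilia level were AU040972, Wdr66, 1700016K19Rik, Ttc21a, BC007180, Ccdc108, 1700019L03Rik, 4932418E24Rik, Ccdc135 and Lrrc71. Their r ran from 0.982 in Lrrc71 to 0.995 in AU040972. In the reference annotation BC007180 is Erich3, Ccdc108 is Cfap65, 1700019L03Rik is Cfap157, 4932418E24Rik is Ccdc187 and Ccdc135 is Drc7. Of these 10 genes, 7 were on a further list of 150 motile cilia genes, as were 31 of the 50 genes most like the cilia level and 45 of the 88 with an r above 0.9. Of all 15886 tested genes outside the members, 131 were on that list. The list was chosen with earlier results of these data known, so the overlap is a description and not independent support.

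Because the members moved together, the sequence before their start sites was read. Promoters came from RefSeq on GRCm38.p6 and hold 250 bases before and 50 after a start site. The table held 36 promoters of 32 members, and several starts of the same gene overlap. The half-site GTTGCC of the X-box, the element bound by RFX factors, was searched on both strands and lay in 22 of the 36 promoters (61.1%), against 12.5% of all 32851 promoters of that length. By gene, 21 of 32 members (65.6%) held it in at least 1 promoter. Within the 80 bases before the start it lay in 13 of 36 member promoters (36.1%) and in 3.85% of all. A pair of half-sites, GTTNCC followed after 0 to 3 bases by GGNAAC, lay in 2 of 36 (5.56%), those of Fam183b and Pifo, and in 0.804% of all promoters. A pair can itself contain a half-site on either strand, as both of these did, so the counts share sites. The forkhead motif TGTTTAC, searched on both strands, lay in 3 of 36 (8.33%), those of Ak7, Mlf1 and Sntn, and in 3.65% of all. Among 145 promoters of further motile cilia genes, 35.9% held GTTGCC, 4.14% the pair and 4.83% TGTTTAC. A match describes the letters and shows no binding in these tumors.

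The 80 bases before the start are shown for the 9 members in which a half-site ended within 20 bases of the start. Their nearness to the start follows from that choice, and the stretches show the strand and the letters around the site. In other members the half-site lay farther before the start, as at -219 in Ccno, or after it, as at 39 in Zmynd10, or was absent. Capitals mark GTTGCC, its reverse complement GGCAAC, and the pair. The stretches lie at chr8:95534020-95534099 (plus strand) for Ccdc113, chr12:33092876-33092955 (minus) for Cdhr3, chr5:30281313-30281392 (plus) for Drc1, chr3:106001498-106001577 (minus) for Pifo, chr8:110266897-110266976 (plus) for Hydin, chr11:72361883-72361962 (minus) for Tekt1, chr11:58801961-58802040 (minus) for Fam183b, chr4:126325689-126325768 (minus) for Tekt2 and chr11:114727339-114727418 (plus) for Dnaic2. They read 5′ to 3′ on the strand of the gene:
Ccdc113: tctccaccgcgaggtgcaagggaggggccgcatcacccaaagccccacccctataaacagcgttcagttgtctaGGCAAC
Cdhr3: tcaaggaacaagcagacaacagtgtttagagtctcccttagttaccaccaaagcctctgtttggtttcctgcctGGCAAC
Drc1: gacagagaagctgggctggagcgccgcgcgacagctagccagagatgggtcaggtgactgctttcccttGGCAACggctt
Pifo: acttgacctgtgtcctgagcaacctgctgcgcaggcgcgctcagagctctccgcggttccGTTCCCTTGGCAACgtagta
Hydin: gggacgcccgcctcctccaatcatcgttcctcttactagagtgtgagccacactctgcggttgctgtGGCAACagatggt
Tekt1: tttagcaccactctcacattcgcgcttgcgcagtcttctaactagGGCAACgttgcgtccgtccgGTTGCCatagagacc
Fam183b: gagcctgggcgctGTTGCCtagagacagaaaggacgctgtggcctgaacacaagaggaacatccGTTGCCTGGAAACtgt
Tekt2: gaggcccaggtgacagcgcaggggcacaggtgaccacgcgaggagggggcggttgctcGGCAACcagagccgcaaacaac
Dnaic2: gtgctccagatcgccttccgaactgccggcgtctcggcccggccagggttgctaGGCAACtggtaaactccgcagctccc

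Tekt2 and Pifo, the members with fitted fold changes above 0, carried the same letters as Hydin, Dnaic2 and Ccdc113, whose r to the other members ranged from 0.95 to 0.97. Both genes also had other listed starts. Another promoter of Pifo (chr3:106014597-106014896, minus strand) held no half-site or pair. At another start of Tekt2 the half-site within the 80 bases ended 58 bases away. Which starts were used in these tumors was not tested. Promoters of Foxj1, Dnaaf1, Lrrc6, Rsph1, Rsph4a and Tppp3 were not analysed here.

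The comparison of KPG1 with KP tumors asked whether the motile cilia genes differed with the labelled loss of Glut1. No member passed the limma-voom test at an adjusted p of 0.05, and neither did any of the 15922 genes tested (0%). At an unadjusted p below 0.05 the limma test gave 1 member, Tubb4b, which was lower, where 4.02% of all genes were lower at that level and 1223 genes passed in either direction. By sign, 34 of the 36 tested members were lower in Glut1-KO libraries and 2, Pifo and Tekt2, higher, against 50.7% of all genes lower. The median log2 fold change of the members was -0.98, whereas that of all genes was -0.00. The groups overlapped in all 36 members, so that 0 members were separated, where 1.84% of all genes were separated in either direction. The many members of 1 sign are not many independent observations, since the members shared the levels of control 5 and control 2.

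The median depended on single libraries. It was -0.47 without control 5 and -1.78 without control 2, and -1.17 with both left out, an alternative chosen after the values were seen. Against the 5 male controls, the 2 male Glut1-KO libraries gave a median of -2.14 and the 3 female ones -0.45, and sex as a covariate gave -2.16. The difference between these medians was not tested, and sex was confounded with genotype because no control was female. The 2 male Glut1-KO libraries were also those with Slc2a1 inside the control range and shared a number in their names, so sex, Slc2a1 level and that number cannot be told apart here.

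The test was repeated with tools that model the counts directly. The edgeR quasi-likelihood test also called 0 members at an adjusted p of 0.05 (0% of all genes), and at an unadjusted p below 0.05 it gave 15 members, all lower, where 4.77% of all genes were lower at that level. These 15 members are not independent observations, since control 5 was the highest library for 29 of the 36 tested members. DESeq2 called 1 member, Foxj1, where it called 1.32% of all genes (210 genes). The median log2 fold change of the members was -1.69 in both.

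**Figure D3:**
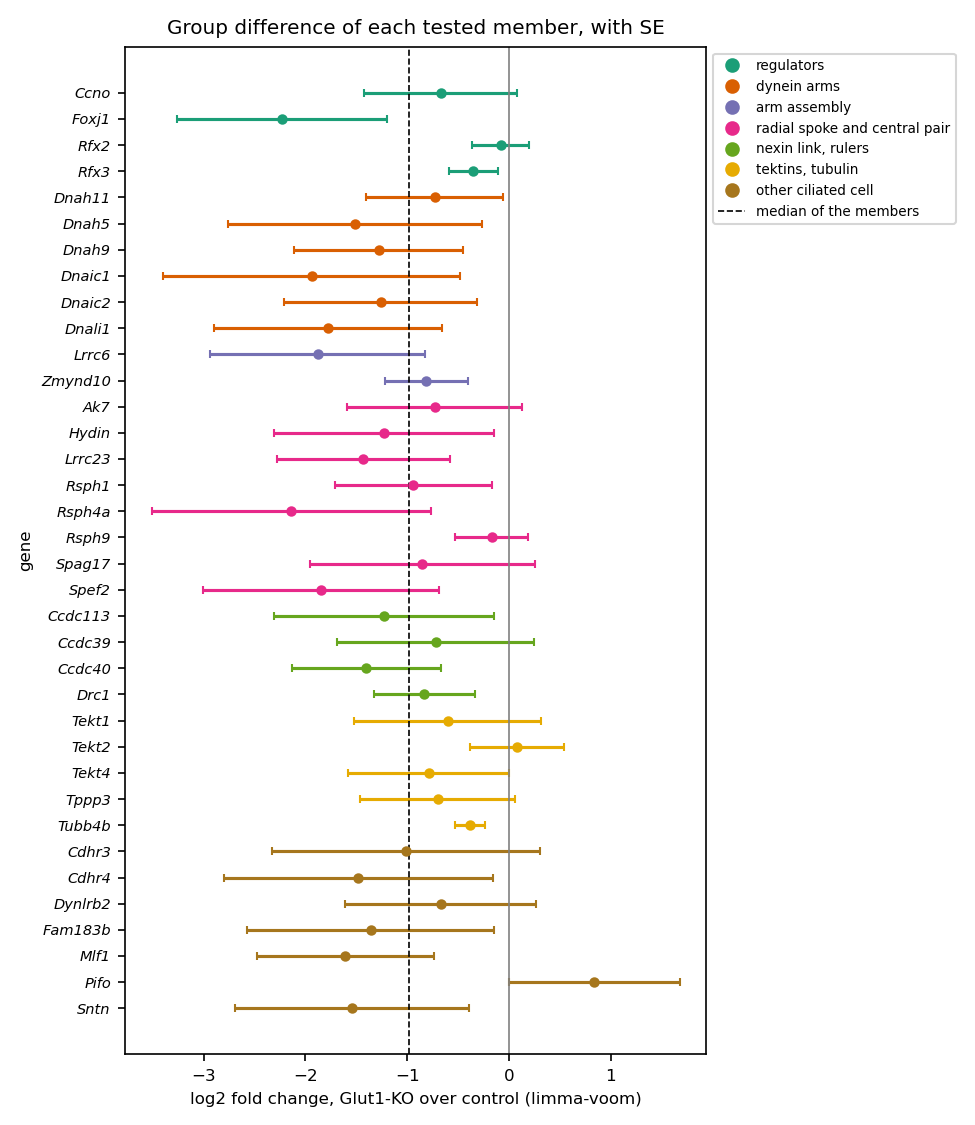
Fitted log2 fold change (Glut1-KO over control, limma-voom) of the 36 tested members, grouped and colored by role. Points are estimates and bars are SE; the dashed line marks the median of the members, -0.98, and 34 of 36 points lie left of 0.

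Among the regulators, Foxj1, the factor that turns on the motile cilia program, had the largest fitted difference of the members in the main limma fit. It lies on chromosome 11 (chr11:116330704-116335399, minus strand, GRCm38). It stood at 25.3, 1.74, 14.9, 12.7 and 54.9 CPM in controls 1 to 5 and at 7.13, 2.95, 2.76, 1.96 and 1.20 CPM in Glut1-KO libraries 1 to 5. Apart from control 2, all controls exceeded all Glut1-KO libraries, whereas control 2 lay below 4 of them.

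The log2 fold change of Foxj1 was -2.23 (SE 1.03, limma unadjusted p = 0.053, adjusted p = 0.658; exact permutation p = 0.0397, 2-sided). The smallest p that this exact test allows is 0.00794, over 252 assignments of the libraries. DESeq2 gave -2.77 (SE 0.67, adjusted p = 0.00779), whereas edgeR gave an adjusted p of 0.364 and the other limma settings between 0.251 and 0.919. Without control 2 the limma value was -3.08, and without control 5 it was -1.71. Foxj1 had an r of 0.89 to the other members.

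Rfx3 was the regulator with most counts and varied little. It stood at 12.6, 16.1, 16.8, 20.1 and 19.6 CPM in controls and at 8.47, 14.4, 21.1, 14.3 and 10.8 CPM in Glut1-KO libraries. The groups overlapped, and both the highest and the lowest library were Glut1-KO (log2 fold change -0.35, SE 0.24, limma adjusted p = 0.756; -0.19 without Glut1-KO 1 and -0.53 without Glut1-KO 3). Rfx2 behaved alike, at 9.91 ± 2.57 CPM in controls and 9.74 ± 3.71 CPM in Glut1-KO libraries (SD, n = 5 each). Its fitted value of -0.08 changed sign under 3 of the alternatives.

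Ccno and Mcidas, neighbors on chromosome 13 that drive the multiplication of centrioles, were low. Ccno averaged 2.70 ± 2.07 CPM in controls and 1.95 ± 1.80 CPM in Glut1-KO libraries (SD, n = 5 each), and had an r of 0.87 to the other members. Mcidas had between 0 and 15 reads per library, too few for a test. Its highest values were 0.362 CPM in control 5 and 0.357 CPM in Glut1-KO 2. It averaged 0.107 ± 0.151 CPM in controls and 0.152 ± 0.162 CPM in Glut1-KO libraries (SD, n = 5 each).

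All 6 genes of the dynein arms were lower by sign, with a median log2 fold change of -1.39 and 0 called. Without control 5 their values ran from -0.19 in Dnah11 to -1.14 in Dnali1. The 6 genes comprise the heavy chains Dnah5 and Dnah9 of the outer arm, the heavy chain Dnah11, the intermediate chains Dnaic1 and Dnaic2, and Dnali1 of the inner arm. Dnah5 stood at 2.43, 0.316, 9.41, 1.68 and 32.2 CPM in controls and at 4.11, 1.45, 2.00, 0.491 and 0.249 CPM in Glut1-KO libraries. Control 5 and control 3 were high, whereas control 2 fell among the lowest Glut1-KO libraries. The log2 fold change of Dnah5 was -1.51 (SE 1.25, limma adjusted p = 0.792), and it was -0.70 without control 5, -0.95 without Glut1-KO 5 and -2.45 without control 2.

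Dnali1 had the smallest p of the dynein genes. It stood at 1.75, 0.148, 4.03, 2.04 and 11.0 CPM in controls and at 2.00, 0.618, 0.449, 0.399 and 0.159 CPM in Glut1-KO libraries. Glut1-KO 1 lay among the middle controls, and control 2 lay below every Glut1-KO library. Its log2 fold change was -1.78 (SE 1.12, limma unadjusted p = 0.141, adjusted p = 0.745), and it was -1.14 without control 5 and -2.77 without control 2. Dnaic1 ranged from 0 reads in Glut1-KO 4 to 211 in control 5, the widest spread over libraries on the log2 scale (SD 2.57). The fitted values of the other dynein genes ran from -0.73 in Dnah11 to -1.94 in Dnaic1. Dnah11 was -0.19 without control 5 and -0.40 without Glut1-KO 5. Dnaic1 was -1.09 without control 5, -1.21 without Glut1-KO 4 and -3.06 without control 2.

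Of the genes whose proteins fold and mount the arms in the cytoplasm, Zmynd10 was the most abundant in CPM. It stood at 1.11, 1.04, 2.49, 1.27 and 3.52 CPM in controls and at 1.70, 0.666, 0.786, 0.920 and 0.906 CPM in Glut1-KO libraries. Only Glut1-KO 1 reached the controls, and the other 4 lay below all of them. The log2 fold change of Zmynd10 was -0.81 (SE 0.41, limma unadjusted p = 0.0769, adjusted p = 0.686; exact permutation p = 0.0952), and it was -0.54 without control 5. Lrrc6 had 0 to 95 reads per library and a log2 fold change of -1.88 (SE 1.06). Dnaaf1 had 2 to 103 reads and was not tested.

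All 8 genes of the radial spokes and the central pair were lower by sign, with a median of -1.09 and 0 called. Single values depended on control 5 here too, as in Ak7, which was -0.73 in the main fit and -0.06 without control 5. The spoke head genes are Rsph1, Rsph4a and Rsph9, with Lrrc23 also in the spoke, and Hydin, Spag17, Spef2 and Ak7 belong to or act at the central pair. Rsph9 stood at 8.40, 4.66, 12, 7.81 and 13.1 CPM in controls and at 10, 6.78, 13.4, 5.67 and 4.39 CPM in Glut1-KO libraries. The groups covered the same range, with Glut1-KO 3 highest (log2 fold change -0.17, SE 0.36, limma adjusted p = 0.928).

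Lrrc23 had the smallest p of the spoke and central pair genes. It stood at 0.962, 0.854, 4.77, 1.12 and 9.40 CPM in controls and at 1.97, 1.31, 1.41, 0.276 and 0.226 CPM in Glut1-KO libraries. The 3 female Glut1-KO libraries exceeded 3 of the controls, and the 2 male ones lay below all controls. Its log2 fold change was -1.43 (SE 0.85, limma adjusted p = 0.728), and it was -0.90 without control 5.

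Within the same spoke head, Rsph9 and Rsph4a differed in how far they varied. Rsph4a ran from 0.0679 CPM (3 reads) in Glut1-KO 5 to 17.0 CPM in control 5, a 251-fold range, whereas Rsph9 spanned 3.06-fold. In the main limma fit Rsph4a had the second largest difference of the members, -2.14 (SE 1.37, limma adjusted p = 0.745), which was -1.42 without control 5 and -3.26 without control 2. Hydin, a very large protein of the central pair, averaged 4.22 ± 5.66 CPM in controls and 0.861 ± 0.761 CPM in Glut1-KO libraries (SD, n = 5 each). The control SD exceeded the control mean there, with control 5 at 13.5 CPM and control 3 at 5.73 CPM.

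The 4 genes of the nexin link and of the rulers that set the spacing along the doublet were lower by sign, with a median of -1.03 and 0 called. Without control 5 their values ran from -0.12 in Ccdc39 to -0.86 in Ccdc40. The 4 genes are Drc1 and Ccdc113, and the ruler genes Ccdc39 and Ccdc40. Ccdc39 stood at 3.14, 0.445, 6.79, 2.29 and 18 CPM in controls and at 2.65, 4.37, 4.20, 0.920 and 0.521 CPM in Glut1-KO libraries. Its partner Ccdc40 stood at 2.38, 1.39, 4.84, 2.32 and 16.3 CPM in controls and at 2.70, 2.00, 2.25, 0.644 and 0.498 CPM in Glut1-KO libraries.

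In both ruler genes control 5 was highest and the groups overlapped, with male Glut1-KO libraries below the female ones. Their log2 fold changes were -0.72 for Ccdc39 (SE 0.97, limma adjusted p = 0.881) and -1.40 for Ccdc40 (SE 0.73, limma adjusted p = 0.688). Ccdc39 was -0.12 without control 5, -0.46 without control 3, -0.22 without Glut1-KO 5 and -1.53 without control 2, and 0.22 against the female Glut1-KO libraries alone. Ccdc40 was -0.86 without control 5.

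Among the tektins and tubulin-associated genes 4 of 5 were lower by sign, with a median of -0.60. Tubb4b, a beta tubulin of axonemes, was by far the most abundant member, with a mean of 467 transcripts per M (TPM, a scale per transcript length). It lies on chromosome 2 (chr2:25222160-25224702, minus strand, GRCm38). Tubb4b stood at 308, 396, 338, 299 and 370 CPM in controls and at 311, 194, 248, 259 and 317 CPM in Glut1-KO libraries. Glut1-KO 1 and 5 lay inside the control range, and the other 3 lay below all controls.

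The difference in Tubb4b was small, -0.38 on the log2 scale, with a small spread (SE 0.15, limma unadjusted p = 0.0288, adjusted p = 0.609; exact permutation p = 0.0476). Adjusted p-values under the alternatives ran from 0.292 to 0.918. Tubb4b was highest in control 2, the library with nearly the lowest cilia level, where proliferation genes also summed to 644 CPM against 241 to 416 CPM in all other libraries. Tubb4b was lowest in Glut1-KO 2, whose proliferation sum of 416 CPM was the next highest. Its r of 0.21 to the other members became -0.10 with group means removed.

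Tekt2 was one of the 2 members that were higher by sign. It stood at 2.28, 1.08, 1.21, 3.82 and 1.71 CPM in controls and at 2.17, 1.33, 0.876, 2.42 and 3.96 CPM in Glut1-KO libraries. Glut1-KO 5, lowest for 15 members, was highest for Tekt2, and the groups covered the same range (log2 fold change 0.08, SE 0.46, limma adjusted p = 0.981). The sign turned under 6 alternatives. Tekt1 and Tekt4, which encode tektins of the same family, had r of 0.95 and 0.88 to the other members and fitted values of -0.60 and -0.79.

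Tppp3, a microtubule-bundling protein of ciliated cells, came next to Tubb4b in abundance, with a mean of 50.7 TPM. It ranged from 6.76 CPM in control 2 to 126 CPM in control 5 and averaged 42.0 ± 49.4 CPM in controls and 17.0 ± 10.4 CPM in Glut1-KO libraries (SD, n = 5 each). Its log2 fold change was -0.70 (SE 0.76, limma adjusted p = 0.847), and it was -0.10 without control 5, -0.46 without control 3 and -1.22 without control 2. On the scale per length, Dynlrb2 followed with 22.4 TPM, Rsph9 with 17.2 TPM and Foxj1 with 15.1 TPM, and the other members averaged between 0.179 TPM in Mcidas and 8.72 TPM in Pifo.

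**Figure D4:**
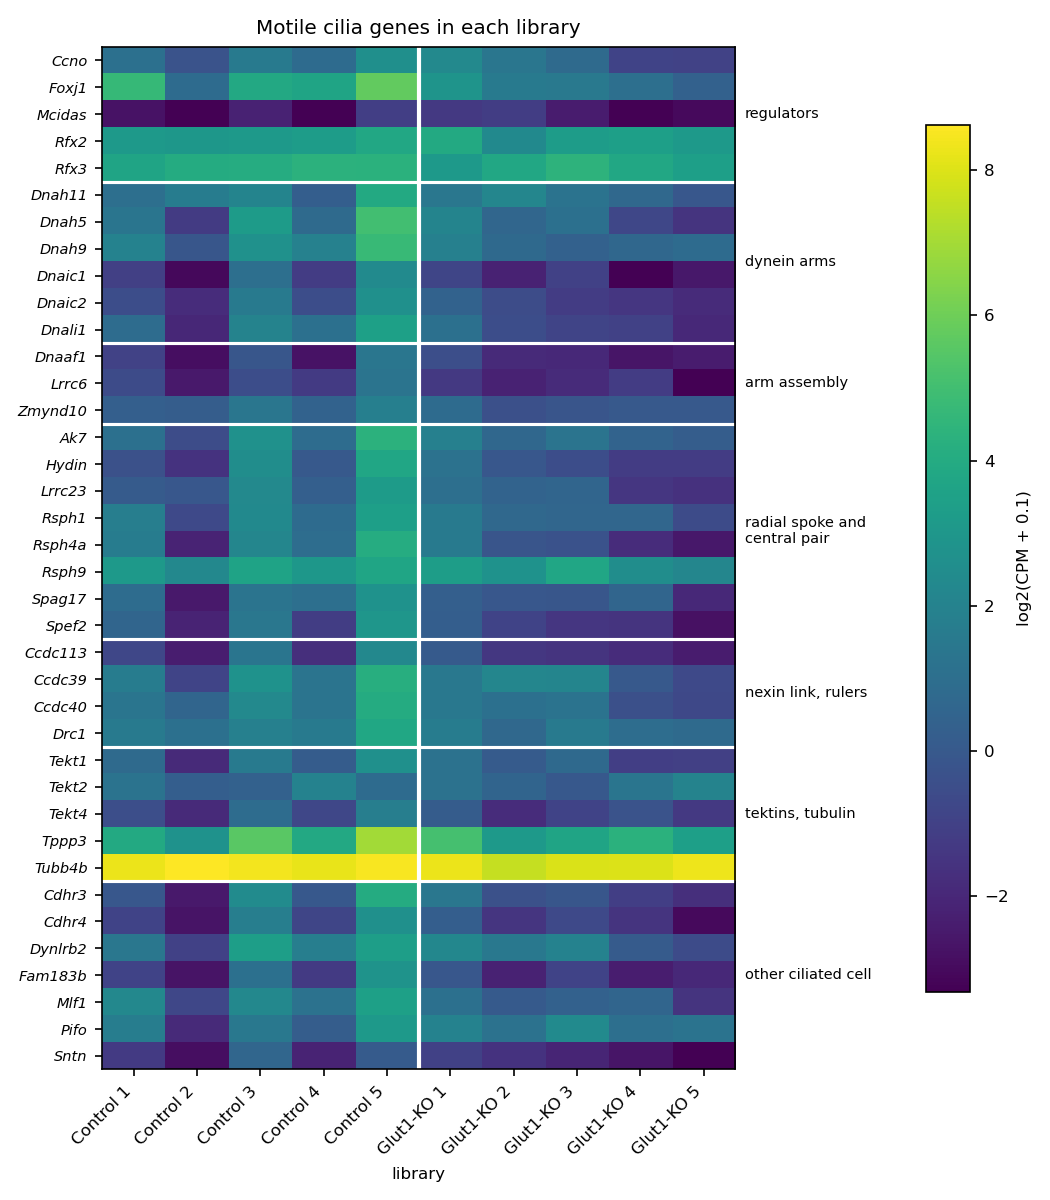
Level of each of the 38 members (rows, by role) in each of the 10 libraries (columns, controls left and Glut1-KO right of the white line), as log2(CPM + 0.1). Control 5 and control 3 are bright in most rows and control 2 and Glut1-KO 5 dark, whereas Tubb4b, Rfx2, Rfx3, Rsph9 and Tekt2 change little.

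Of the 7 other genes of ciliated cells, 6 were lower by sign, with a median of -1.36 and 0 called. Dynlrb2, a light chain of dynein, stood at 2.58, 0.390, 10.3, 3.41 and 10.2 CPM in controls and at 4.46, 2.66, 3.86, 0.982 and 0.566 CPM in Glut1-KO libraries. Control 2 was the lowest library and controls 3 and 5 the highest, so that the controls enclosed all Glut1-KO libraries. Its log2 fold change was -0.67 (SE 0.94, limma adjusted p = 0.884), and it was -0.25 without control 5, -0.26 without control 3, -0.19 without Glut1-KO 5 and -1.51 without control 2.

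Mlf1 had the smallest p of these 7 genes. It stood at 4.73, 0.483, 4.74, 2.19 and 10.9 CPM in controls and at 2.02, 0.951, 1.19, 1.38 and 0.249 CPM in Glut1-KO libraries. As in Foxj1, control 2 was the single control that reached into the Glut1-KO range (log2 fold change -1.61, SE 0.87, limma unadjusted p = 0.0906, adjusted p = 0.707; exact permutation p = 0.119). Without control 2 its limma value was -2.34.

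Pifo, a protein of the ciliary base, was the other member higher by sign. It lies on chromosome 3 (chr3:105996957-106014646, minus strand, GRCm38) and stood at 3.29, 0.167, 2.64, 1.04 and 8.39 CPM in controls and at 3.80, 2.19, 5.16, 1.99 and 2.22 CPM in Glut1-KO libraries. Mean CPM did not separate the groups, at 3.11 ± 3.20 in controls and 3.07 ± 1.38 in Glut1-KO libraries (SD, n = 5 each). The fitted log2 fold change of 0.84 (SE 0.84, limma adjusted p = 0.832) rested on control 2, without which it was -0.05, and edgeR and DESeq2 each gave -0.01. With group means removed, Pifo had an r of 0.87 to the other members, against 0.65 before.

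The remaining genes of ciliated cells were the low members Sntn, Cdhr3, Cdhr4 and Fam183b. Sntn, which encodes sentan of the ciliary tip, had 0 to 59 reads per library and was highest in control 3. The cadherin Cdhr3 averaged 4.63 ± 6.69 CPM in controls and 0.935 ± 0.965 CPM in Glut1-KO libraries, and Cdhr4 2.10 ± 2.65 and 0.423 ± 0.402 CPM (SD, n = 5 each). Fam183b ran from 0.0557 CPM in control 2 to 6.92 CPM in control 5. The fitted values of these genes ran from -1.01 in Cdhr3 to -1.54 in Sntn. Cdhr3, at 16 CPM in control 5, was -0.12 without control 5, -0.52 without control 3, -0.57 without Glut1-KO 5 and -2.13 without control 2. Cdhr4 was -0.72 without control 5, -0.69 without Glut1-KO 5 and -2.46 without control 2.

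The further list of 150 motile cilia genes, none of them members, held 131 tested genes. Of these, 120 were lower by sign and 11 higher, the median log2 fold change was -0.70, and 0 were called by limma, with 7 at an unadjusted p below 0.05 (6 lower), where 7.68% of all genes passed at that level in either direction. The median was -0.26 without control 5 and -1.09 without control 2. Of its 11 tested regulators and genes of centriole amplification 9 were lower and 2 higher by sign, with a median of -0.22. DESeq2 called 1 gene of the further list, Map3k19 (log2 fold change -2.19, SE 0.61, DESeq2 adjusted p = 0.0315), named here because of its value, where DESeq2 called 1.32% of all genes; limma gave -1.72 (SE 0.61, adjusted p = 0.556). The median r of the further genes to the cilia level was 0.86.

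Genes of intraflagellar transport and the BBSome, which build motile and primary cilia alike, were listed for comparison. The list also held other cilia genes, such as Tmem67, Cep290, Arl13b and Arl3. All 35 were tested, 15 were higher and 20 lower by sign, and the median log2 fold change was -0.04 with 0 called by limma and 1 at an unadjusted p below 0.05, against 7.68% of all genes. Their median r to the cilia level was 0.59. The difference between this list and the members was not tested.

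Markers of other cells also varied between libraries, and their part in the cilia values was not tested. The 10 club cell markers summed to 10436, 1805, 4859, 9383 and 6465 CPM in controls and to 7386, 2868, 2196, 4351 and 1196 CPM in Glut1-KO libraries. Glut1-KO 5 and control 2, at the bottom of the cilia level, were also the lowest for club cell markers. Scgb1a1 made up between 52.2% and 83.7% of these sums. Without it control 5 summed to 2321 CPM, above controls 1 and 4 at 1704 and 1811 CPM, and the r of the log2 sum to the cilia level was 0.83. Of these 10 genes 7 were lower by sign (median -0.75, 0 called), and the log2 sum with Scgb1a1 had an r of 0.66 to the cilia level. The single club cell genes had r from -0.34 in Aldh1a1 to 0.92 in Cbr2, with a median of 0.53. The sums of alveolar type 1 and type 2 markers had r of 0.63 and 0.57. The secretory protein Scgb1a1, the CC10 antigen itself, had an r of 0.56.

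Leukocyte and endothelial markers were mostly higher in Glut1-KO libraries by sign, whereas fibroblast markers were 2 higher and 7 lower and alveolar type 1 markers 5 higher and 5 lower. Alveolar type 2 markers were 8 higher and 2 lower (median 0.21), goblet markers 2 higher and 4 lower, and basal markers 0 higher and 3 lower. Only 3 of the 6 basal markers were tested, and the list summed to 590 CPM in control 1 and to between 7.5 and 35.2 CPM in the other libraries. Mesothelial markers were 1 higher and 3 lower, proliferation genes 2 higher and 10 lower, and neuroendocrine markers 2 higher and 0 lower. Of 13 tested leukocyte markers 11 were higher (median 0.88, 0 called by limma, 6 at an unadjusted p below 0.05 against 7.68% of all genes, 5 called by DESeq2 against 1.32% of all genes), and without Cd74, which made up between 36.6% and 89.2% of the sum, the list summed to between 330 and 1112 CPM in controls and between 578 and 1362 CPM in Glut1-KO libraries. Ptprc, which encodes CD45, stood at 2.30 to 3.26 CPM in controls and at 5.05 to 10.1 CPM in Glut1-KO libraries, with no overlap (limma adjusted p = 0.23). All 12 endothelial markers were higher (median 0.58, 0 called), with sums of 154 to 541 CPM in controls and 256 to 707 CPM in Glut1-KO libraries. The single endothelial and leukocyte markers had a median r of 0.25 and -0.11 to the cilia level. The log2 sum of the endothelial markers had an r of 0.19, and that of the leukocyte markers 0.30 with Cd74 and -0.53 without it. Without Cd74, Lyz1 made up 908 of the 1362 CPM in Glut1-KO 4. Lyz1 ranged from 13.5 CPM in control 3 to 925 CPM in Glut1-KO 5, with an r of -0.56.

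**Figure D5:**
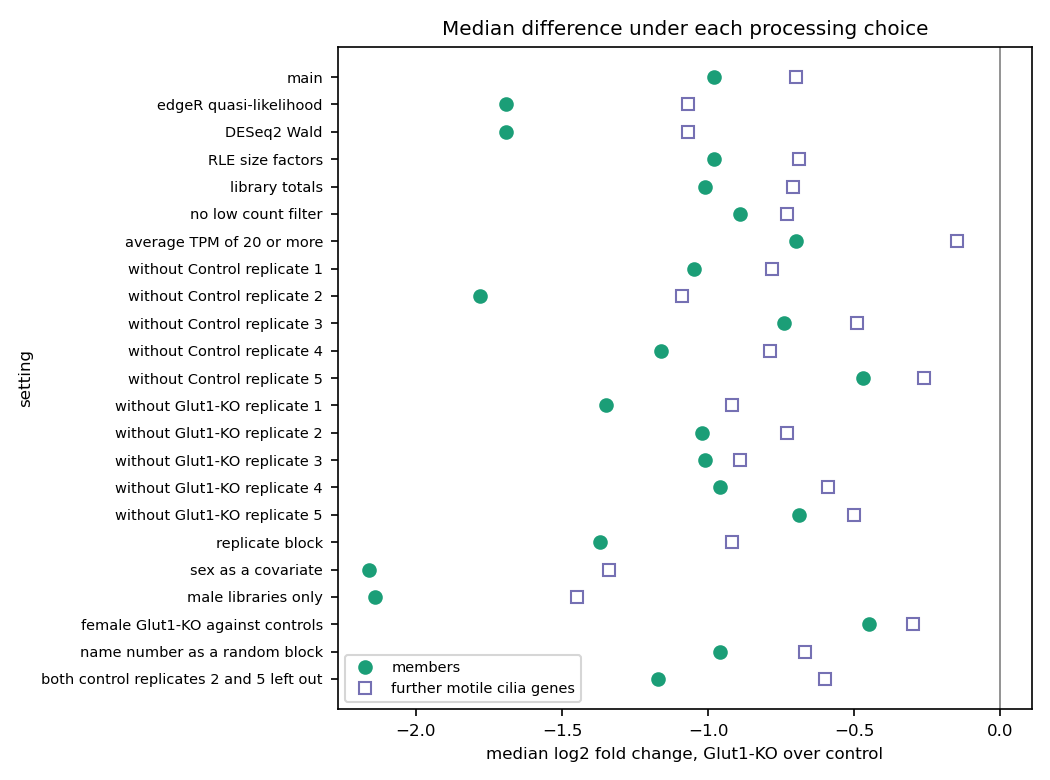
Median log2 fold change (Glut1-KO over control, horizontal axis) of the motile cilia members (filled circles) and of further motile cilia genes (open squares) under the main fit and each other processing choice (rows). All medians are below 0, those of the members between -0.45 and -2.16; the filter at an average TPM of 20 leaves 3 members.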

How the data were processed

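The authors depleted CD45-positive cells with magnetic beads, prepared TruSeq stranded mRNA libraries and deposited raw read counts per Ensembl gene for 10 libraries (mm10). The submitters' processing notes name cutadapt 1.4.2, HISAT2 and featureCounts 1.4.4; the use of strand is not given in the sources used here. The deposited combined table equalled the 10 single files. A deposited table of log2 values was not used. From the deposited counts, genes were kept by filterByExpr (minimum count 10, minimum total 15; 15922 genes), scaled by TMM (edgeR 4.0.16), and fitted with voom (prior count 0.5) and limma 3.58.1 in R 4.3.3, with group as the only term and Benjamini-Hochberg adjustment over all genes tested (threshold 0.05). Fold changes are log2 of Glut1-KO over control. Exact permutation tests were 2-sided over 252 assignments. TPM used exon lengths of GENCODE M21, which held 37693 of the 39017 gene IDs. Alternatives were edgeR's quasi-likelihood test, DESeq2 1.42.0, other scalings and filters, leaving out each library, a replicate block, and sex.

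The members, the gene lists and the tests were chosen with earlier results of these data known. Values in every library are given for Foxj1, for the member of each role with the highest mean CPM and the one with the smallest limma p, for members that did not overlap between groups (0), and for members whose sign opposed the median. The p-values measure the spread between these libraries, which may in part be technical.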

Additional observations from a re-analysis of the deposited data

Results flagged for a closer look

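Within each group of 5 libraries, a value was picked out when its gap to the nearest other value exceeded 0.71 of the group's range (Dixon's test for 5 values, 95%). On CPM, this held for 16 of the 80 groups of values, which cover the 38 members, the cilia level and Slc2a1, and all 16 were members. Chance flags about 1 in 20 groups where values are normally distributed, which CPM spread over many fold are not, and the members follow each other, so these are not 16 separate events. On log2 CPM only 2 of the 76 groups of member values were picked out, both low values in Glut1-KO 5, in Lrrc6 and Spag17, and none of the values below.

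Control 5 stood above the other controls in 8 members, all in CPM: Rfx2 at 14.4 (others 8.00 to 9.79), Dnah5 at 32.2 (0.316 to 9.41), Dnah9 at 26.3 (0.817 to 6.55), Dnah11 at 15.2 (1.09 to 4.10), Lrrc6 at 2.29 (0.0742 to 0.618), Rsph4a at 17.0 (0.130 to 4.42), Drc1 at 13.6 (2.00 to 3.58) and Ccdc40 at 16.3 (1.39 to 4.84).

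Glut1-KO 1 stood above the other Glut1-KO libraries in 8 members, also in CPM: Dnah9 at 3.65 (others 1.21 to 1.72), Dnali1 at 2.00 (0.159 to 0.618), Zmynd10 at 1.70 (0.666 to 0.920), Dnaaf1 at 0.633 (0.0613 to 0.166), Rsph4a at 2.95 (0.0679 to 0.784), Hydin at 2.17 (0.337 to 0.856), Ccdc113 at 0.949 (0.0906 to 0.285) and Cdhr3 at 2.60 (0.204 to 0.808).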

How the results depend on the processing

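Of 759 fitted values of single members under the alternatives, 740 kept direction and side of the threshold, 18 values of 8 members turned sign and 1 passed the threshold. In 22 of 23 settings, the main fit included, 0 members were called; DESeq2 called 1 member (Foxj1, -2.77) and 1 further motile cilia gene. The count of all genes called was 210 with DESeq2, 9 with female Glut1-KO libraries against the controls, 3 with sex as a covariate, 1 with male libraries only, and 0 to 1 when single libraries were left out. With an average TPM of 20 or more, 3 of 3 members and 11 of 12 further genes were lower. The cause of these differences was not tested.

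The sign turned with female Glut1-KO libraries against the controls in Ccdc39 (0.22), Ccno (0.37), Dynlrb2 (0.22), Rsph9 (0.22), Tekt1 (0.18) and Tekt2 (-0.39). It turned in Pifo with edgeR and DESeq2 (each -0.01) and without control replicate 2 (-0.05, where leaving out single libraries gave -0.05 to 1.43). For Rfx2 it turned without control replicate 5 (0.06), without Glut1-KO replicate 2 (0.14; range over single libraries left out -0.27 to 0.14) and with control replicates 2 and 5 both left out (0.01). For Rsph9 it turned without Glut1-KO replicate 5 (0.05; range -0.43 to 0.05). For Tekt2 it turned without control replicate 2 or 3 or Glut1-KO replicate 4 or 5 (range over single libraries -0.19 to 0.36) and with control replicates 2 and 5 both left out (-0.21), which was chosen after seeing the data. Leaving out single libraries moved the median of the members between -1.78 and -0.47 and that of the further genes between -1.09 and -0.26.

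Replicate numbers were shared between groups, and same-numbered libraries showed little common deviation (correlations of -0.13 to 0.20, with 1 of 5 controls correlating best with its own number). With 5 pairs, these values cannot show whether such libraries share anything beyond the number. With a replicate block 0 members were called, 34 of 36 were lower, and the median was -1.37. With the number in the name as a random block (correlation 0.0703) the median was -0.96. Low members such as Sntn and Lrrc6, with libraries at 0 reads, give imprecise fold changes.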
